A study of Mus musculus with 20 samples.

Results

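The integrated stress response genes that act with or under the transcription factor ATF4 were followed in mouse liver. The members were 10 genes of this pathway, chosen by symbol: Atf4, Ddit3, Atf3, Trib3, Asns, Chac1, Sesn2, Psat1, Phgdh and Nupr1. A gene counted as measured when at least 1 microarray probe set named it and no other gene in the platform annotation, and where several did, the one with the highest mean over the 20 arrays stood for it. All 10 members were measured, of 18193 genes with such a probe set, through 21 probe sets in all. Of the 10, 8 lay above the filter on low values and were among the 11728 genes tested. Atf3 (mean log2 level 6.47) and Psat1 (6.19) lay below the filter level of 6.51, and Nupr1 (6.54) just above it.

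The diets were compared in livers of 20 males of the inbred strain C57BL/6J, labelled as 8 weeks old. The MSXH group of 10 mice ate a high-fat diet, with 45 kcal% of its energy as fat, that carried 0.05% MSXH, a maple syrup extract. The HFD group of 10 mice ate the same high-fat diet without the extract. All mice had been bought at 3 weeks of age and acclimated on a low-fat diet of 10 kcal% fat, then fed for 4 weeks and sampled on day 30 after a 16 h fast. The labels call the arrays biological replicates, 1 mouse each. Groups on the low-fat diet or on a lower extract dose were not analysed here.

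In the integrated stress response, kinases that sense amino acid shortage, unfolded protein, double-stranded RNA or heme shortage phosphorylate the translation factor eIF2alpha. Bulk protein synthesis then falls while the ATF4 messenger RNA is translated more, because short upstream reading frames no longer divert the ribosome. ATF4 pairs with C/EBP proteins on a composite DNA element and switches on genes for amino acid synthesis, transport and tRNA charging, together with stress-induced regulators such as Ddit3 and Trib3. In liver the pathway is known for its response to amino acid supply, fasting and endoplasmic reticulum stress. Since ATF4 is controlled mainly in translation, the level of its messenger RNA is not a direct measure of its activity.

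The composite element was looked for in the promoters, because it is the sequence through which ATF4 is known to act on several members. It was searched as TGATGNAA on both strands in the RefSeq promoter windows of GRCm38.p6, which run from 250 bases before to 50 after each start. All 10 members had a window, and 5 held a match: Asns, Chac1, Atf3, Nupr1 and Trib3. Over all genes with a window, 1219 of 27025 (4.51%) held one. The members were chosen as genes of this pathway, so their share is a description. The stretches below run 5′ to 3′ on the strand of the gene, with the match in capitals. They are chr6:7693210-7693268 (minus strand) for Asns, chr2:119351013-119351092 (plus strand) for Chac1, chr1:191183400-191183479 (minus strand) for Atf3, chr7:126625537-126625616 (minus strand) for Nupr1 and chr2:152344028-152344057 (minus strand) for Trib3.
Asns: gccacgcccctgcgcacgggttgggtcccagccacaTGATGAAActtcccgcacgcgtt
Chac1: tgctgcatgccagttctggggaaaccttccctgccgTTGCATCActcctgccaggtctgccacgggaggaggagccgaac
Atf3: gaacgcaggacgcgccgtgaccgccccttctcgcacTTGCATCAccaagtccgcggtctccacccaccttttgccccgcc
Nupr1: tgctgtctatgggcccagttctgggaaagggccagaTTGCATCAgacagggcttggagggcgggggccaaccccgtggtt
Trib3: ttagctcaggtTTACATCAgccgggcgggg

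The Asns match lay on the strand of the gene, at -23 to -16, counted from the start with negative numbers upstream. In Chac1, Atf3, Nupr1 and Trib3 the match lay on the opposite strand, so the capitals show its reverse complement. It lay at -193 to -186 in Chac1 and at -110 to -103 in both Atf3 and Nupr1. In Trib3 it lay after the start, at 15 to 22. The letters were not found in the windows of Atf4, Ddit3, Sesn2, Psat1 and Phgdh, which says nothing of elements elsewhere in those genes.

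The deposited values were taken as log2 levels, but they were compressed between arrays. The median SD of a probe set over the 20 mice was 9.34e-06 on that scale, and array medians lay between 6.5053 and 6.5055. Differences therefore cannot be read as fold changes. Levels of a mouse are given below in SD units of that gene over the 20 mice, and the difference between diets, MSXH minus HFD, as Hedges' g: the gap between the group means in units of the pooled SD. The SD on the deposited scale was highest for Ddit3 (0.000835) and Asns (0.00065). For Ddit3, 97.9% of all genes with a probe set had a lower SD. It was lowest for Phgdh (6.77e-06), the only member under the median SD of a probe set. No pair of arrays held identical values. Hepatocyte markers were present: all 11 measured, from albumin to Hnf4a, were above the filter, against 5 of 10 for exocrine pancreas, 3 of 6 for adipocytes and 2 of 7 for lymphocytes. All 12 Kupffer cell markers were above it. In whole liver, fewer cells of a type and less RNA per cell cannot be told apart.

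One mouse stood apart for these genes. In HFD replicate 3, 6 of the 10 members lay over 1 SD above their mean: Psat1 at 3.48, Nupr1 at 2.52, Atf4 at 2.16, Chac1 at 1.82, Asns at 1.69 and Atf3 at 1.07 SD units. Trib3 (-1.19) and Phgdh (-1.37) lay more than 1 SD below it in that mouse. No other mouse had more than 3 members over 1 SD. The same mouse had the highest mean level of Kupffer cell markers in its group (1.56 SD units, where the 10 MSXH mice ran from -1.92 to 1.86 and the 10 HFD mice from -0.895 to 1.56). For genes of the unfolded protein response it stood at 1.46 SD units, where the MSXH mice ran from -1.24 to 1.13 and the HFD mice from -1.49 to 1.68. The part of either in the levels of the members was not tested.

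No member passed the test of a difference between the diets. With limma across all 11728 genes and Benjamini-Hochberg adjustment, 0 of the 8 members tested passed an adjusted p of 0.05, where 0% of all genes did. At an unadjusted p under 0.05 there were 0 of 8 members, against 3.62% of all genes (425 genes, 221 higher and 204 lower in MSXH livers). A Wilcoxon rank-sum test likewise called 0 genes, with 399 at an unadjusted p under 0.05. Of the 8 members, 2 had a higher mean in MSXH livers and 6 a lower one, with a median g of -0.0888, against -0.00692 over all tested genes. For every member the levels of MSXH and HFD mice overlapped, as they did for all tested genes (0% without overlap). The 95% interval of g held 0 for each of the 10 members, and the shifts it leaves differ by member, from -1.34 to 0.434 for Atf4 and from -0.653 to 1.11 for Asns.

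**Figure D1:**
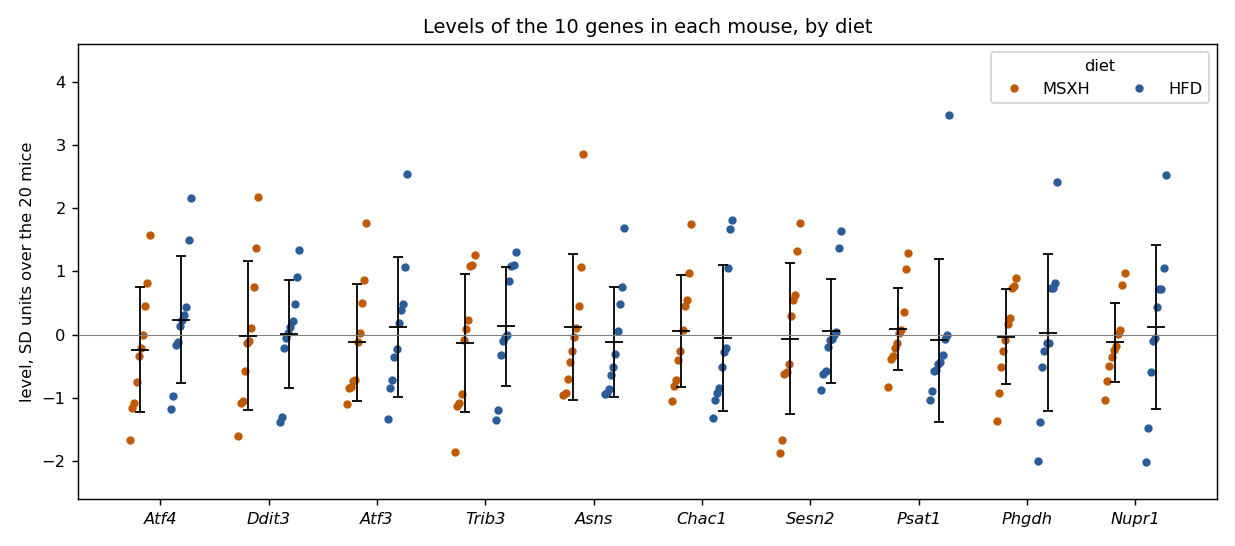
Level of each of the 10 genes in each of the 20 mice, in SD units of that gene over the 20 mice, with MSXH mice (orange) left of HFD mice (blue). Each point is 1 mouse, horizontal bars are group means and vertical bars 1 SD. The groups overlap for every gene, and the points that lie farthest out are Psat1 in HFD replicate 3 (3.48) and Asns in MSXH replicate 5 (2.86).

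Among the transcription factors, Atf4, the central factor of the response, had SD units from -1.67 through a median of -0.268 to 1.57 in MSXH livers, against -1.17, 0.189 and 2.16 in HFD livers. The median of the HFD mice was exceeded by 3 of 10 MSXH mice, and the g of -0.454 (95% interval -1.34 to 0.434, limma unadjusted p = 0.294, adjusted p = 0.9998) was the farthest from 0 among the members tested. Leaving out a mouse moved it between -0.702 (without MSXH replicate 3) and -0.275 (without HFD replicate 3), and after quantile normalization its sign turned (g = 0.617). Ddit3, which encodes the pro-apoptotic factor CHOP, ran from -1.61 through -0.120 to 2.17 in MSXH livers, against -1.39, 0.0712 and 1.34 in HFD livers, with g = -0.0259 (-0.902 to 0.851). The sign of its g turned with single mice, from -0.288 without MSXH replicate 8 to 0.146 without MSXH replicate 5, and the highest and the lowest mouse were both fed MSXH. Atf3, a stress-induced bZIP factor, ran from -1.10 through -0.417 to 1.77 in MSXH livers, against -1.33, -0.0165 and 2.54 in HFD livers (g = -0.226, -1.11 to 0.653), below the filter. Its g was 0.0319 without HFD replicate 2.

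Of the regulators that ATF4 and its partners induce, Trib3 encodes a pseudokinase that binds AKT and feeds back on ATF4. It ran from -1.86 through 0.00718 to 1.26 in MSXH livers, against -1.34, -0.0233 and 1.31 in HFD livers (g = -0.252, -1.13 to 0.628). Chac1, whose enzyme degrades glutathione, ran from -1.06 through -0.0949 to 1.75 in MSXH livers, against -1.32, -0.392 and 1.82 in HFD livers (g = 0.105, -0.773 to 0.982, and -0.0758 without MSXH replicate 3). Sesn2, a stress-induced leucine sensor that restrains mTORC1, ran from -1.88 through -0.0842 to 1.76 in MSXH livers, against -0.878, -0.0744 and 1.65 in HFD livers (g = -0.122, -0.999 to 0.756). The 2 lowest Sesn2 mice were MSXH replicates 2 and 5, and without replicate 2 the g was 0.0721. Nupr1, a small stress-induced chromatin protein, ran from -1.04 through -0.217 to 0.970 in MSXH livers, against -2.02, 0.192 and 2.52 in HFD livers (g = -0.230, -1.11 to 0.649). The 10 MSXH mice lay within the range of the HFD mice, with an SD of 0.625 against 1.30 SD units, and 2 of them were above the HFD median. Without HFD replicate 3 the g of Nupr1 was 0.0243, and after quantile normalization it was -1.01, the farthest from 0 of the members in that setting.

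Of the amino acid enzymes, Asns makes asparagine from aspartate and is a much used readout of ATF4. It ran from -0.952 through -0.142 to 2.86 in MSXH livers, against -0.946, -0.414 and 1.69 in HFD livers (g = 0.226, -0.653 to 1.11). Leaving out MSXH replicate 5, the highest mouse, gave g = -0.0786. Phgdh, the first enzyme of serine synthesis from a glycolytic intermediate, ran from -1.37 through 0.0435 to 0.898 in MSXH livers, against -2.0, -0.137 and 2.42 in HFD livers (g = -0.0561, -0.933 to 0.821, and 0.227 without HFD replicate 2). Psat1, the next enzyme of that route, ran from -0.825 through -0.0537 to 1.29 in MSXH livers, against -1.04, -0.449 and 3.48 in HFD livers (g = 0.167, -0.711 to 1.04). It was the 1 gene whose value moved most with a single mouse: the HFD median was exceeded by 9 of 10 MSXH mice, and without HFD replicate 3 the g was 1.04. Psat1 lay below the filter, and when all 18193 genes were tested it was not called either, nor was any other member.

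The diets were then compared over 98 tested genes of the wider pathway, out of 109 listed besides the members. None of them was called (0 higher, 0 lower). Of 16 genes for eIF2alpha kinases, phosphatase subunits and the exchange factor eIF2B, 8 had a higher and 8 a lower mean in MSXH livers, with a median g of -0.0977. Impact, an inhibitor of the amino acid sensing kinase GCN2, had g = -1.07 (unadjusted p = 0.0202, adjusted p = 0.9998) and Eif2b2, an eIF2B subunit, 0.829. Of 10 transcription factors, 8 had a lower mean (median g -0.253), with Nfe2l2, the oxidative stress factor NRF2, at -0.732 and Mlxip at 0.612. Of 11 enzymes of serine, proline and one-carbon metabolism, 7 had a lower mean (median g -0.264), with the mitochondrial serine hydroxymethyltransferase gene Shmt2 at -0.824 and Pycrl at -0.740. Among 10 amino acid transporters the median g was 0.109, with Slc1a4 at 0.609 and Slc1a5 at 0.457. Of 19 cytosolic aminoacyl-tRNA synthetases, which charge tRNAs, 11 had a higher mean (median g 0.0437). The lysine enzyme gene Kars had g = 1.21 (unadjusted p = 0.0162, adjusted p = 0.9998), and the histidine enzyme gene Hars 0.752.

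Other known targets gave no call either. Of 18 such genes, 13 had a lower mean in MSXH livers (median g -0.150), with Xpot, a tRNA export factor, at -0.460 and Bbc3, the pro-apoptotic PUMA, at -0.439. Fgf21, a liver hormone induced by fasting and by ATF4, had g = -0.0491. Of 15 unfolded protein response genes of the ATF6 and XBP1 arms, 12 had a lower mean (median g -0.0990), with the chaperone genes Dnajb9 at -0.584 and Hsp90b1 at -0.432. Impact and Kars were the only 2 of the 98 genes at an unadjusted p under 0.05, where 3.62% of all genes had such a p, so the count does not exceed that share.

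Whether the members rose and fell together was asked over the 20 mice, for all 45 pairs, with Pearson's r and Spearman's rho and a two-sided permutation p for each (100000 resamples). The relations had both signs. Of the 45 pairs, 28 had a positive and 17 a negative r, with a median of 0.0844. In 25 pairs the sign was the same in MSXH and HFD mice. The unadjusted p was under 0.05 by r in 9 pairs, by rho in 7 and by both in 6, of which 4 were positive and 2 negative. The 4 positive ones linked Atf4, Chac1 and Ddit3 with one another, and Sesn2 with Trib3. The 2 negative ones set Atf4 against Trib3 and Sesn2. Such a p was common among all genes: in limma fits on 1 member, given below, 3.73% (Nupr1) to 18.2% (Phgdh) had one. That share is from another test than the permutation, so the counts of pairs are a description.

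**Figure D2:**
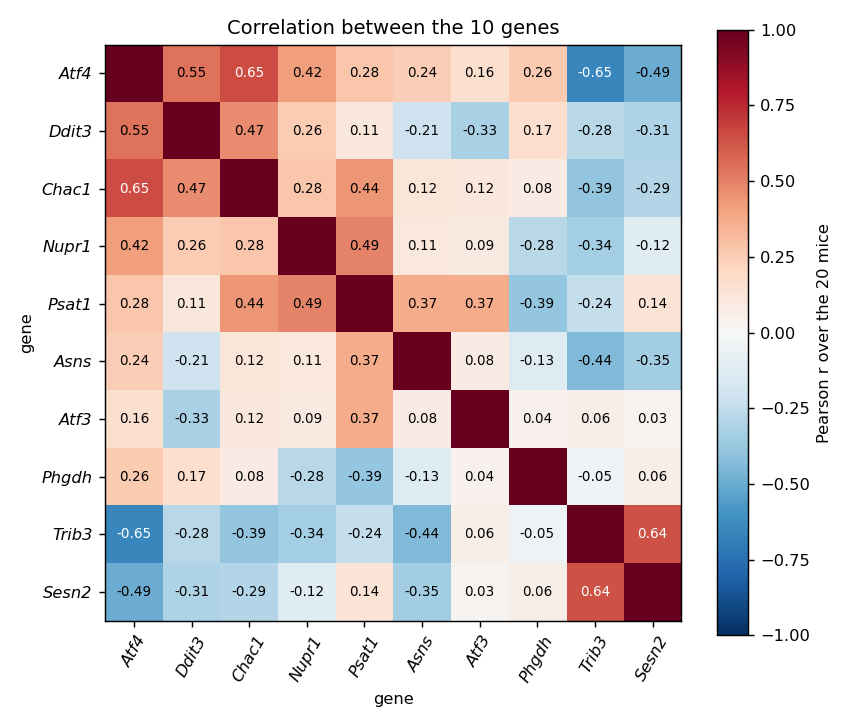
Pearson r between the levels of each 2 of the 10 genes over the 20 mice, written in each square and shown by colour from blue (-1) to red (1). Atf4, Ddit3 and Chac1 correlate positively at the top left, Sesn2 and Trib3 at the bottom right, and the squares that join Atf4 with Trib3 (-0.65) and Sesn2 (-0.49) are blue.

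Atf4 and Chac1 gave r = 0.649 (95% interval 0.290 to 0.848, permutation p = 0.00189) and rho = 0.621 (permutation p = 0.00408). Within the diets r was 0.724 in MSXH mice and 0.664 in HFD mice. The 2 mice highest for Atf4, HFD replicate 3 and MSXH replicate 3, were also the 2 highest for Chac1, and without them r was 0.429. Atf4 and Ddit3 gave r = 0.546 (0.137 to 0.796, permutation p = 0.0127) and rho = 0.555 (permutation p = 0.0128), with 0.488 in MSXH mice, 0.675 in HFD mice and 0.434 without the 2 mice farthest out. The 2 mice farthest out are, here and below, those farthest from the median of the pair's alphabetically first gene. The level of the other gene played no part in that choice. Chac1 and Ddit3 gave r = 0.470 (0.0352 to 0.756, permutation p = 0.0362) and rho = 0.472 (permutation p = 0.0370). That relation was 0.254 in MSXH mice and 0.743 in HFD mice. It was 0.320 without HFD replicate 3 and MSXH replicate 3, the 2 mice farthest out for Chac1. With a single mouse left out it ran from 0.391 (without MSXH replicate 3) to 0.619 (without MSXH replicate 5). It lost its p when any of 6 mice was left out.

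Atf4 and Trib3 ran opposite, with r = -0.653 (-0.850 to -0.296, permutation p = 0.00178) and rho = -0.717 (permutation p = 0.00061). The relation was -0.733 in MSXH mice, -0.697 in HFD mice and -0.573 without the 2 mice farthest out, and it lay between -0.694 and -0.618 whichever mouse was left out. The 2 mice lowest for Atf4 were high for Trib3: MSXH replicate 10 stood at -1.67 for Atf4 and 1.08 for Trib3, and HFD replicate 7 at -1.17 and 1.10. Sesn2 and Trib3 ran together, with r = 0.638 (0.272 to 0.842, permutation p = 0.00250) and rho = 0.651 (permutation p = 0.00238), 0.751 in MSXH mice, 0.453 in HFD mice and 0.487 without the 2 mice farthest out. Atf4 and Sesn2 gave r = -0.492 (-0.768 to -0.0639, permutation p = 0.0261) and rho = -0.543 (permutation p = 0.0143), with -0.586 in MSXH mice, -0.462 in HFD mice and -0.567 without the 2 mice farthest out. Its p was lost when any of 3 mice was left out.

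**Figure D3:**
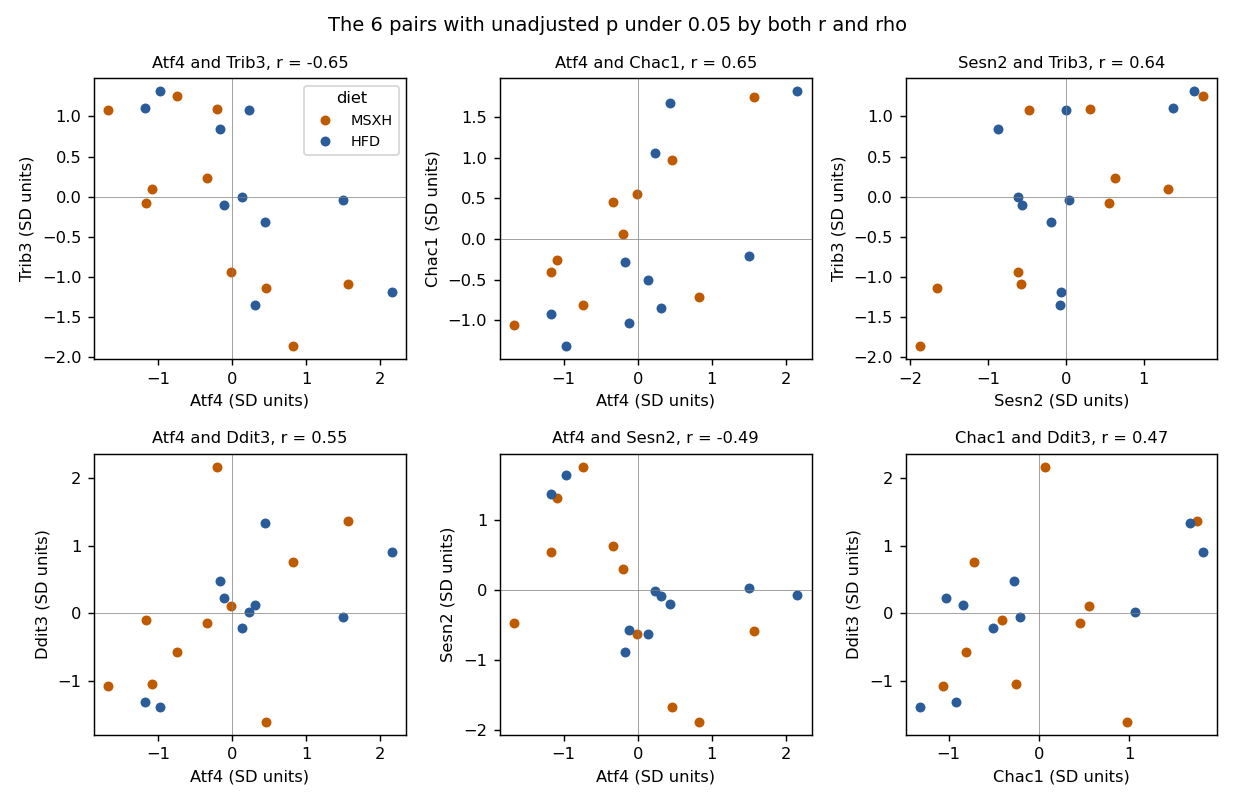
Levels of the 6 pairs of genes whose r and rho both had an unadjusted p under 0.05, each point 1 mouse (orange MSXH, blue HFD), both axes in SD units over the 20 mice. Mice of both diets are mixed along each trend, and HFD replicate 3 is the rightmost point in the 4 panels with Atf4 on the horizontal axis.

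With HFD replicate 3 and MSXH replicate 5 left out together, a setting chosen after seeing the data, these 6 correlations kept their signs: 0.539 for Atf4 and Chac1, 0.633 for Atf4 and Ddit3, 0.601 for Chac1 and Ddit3, -0.606 for Atf4 and Trib3, 0.619 for Sesn2 and Trib3 and -0.551 for Atf4 and Sesn2. All but that of Chac1 and Ddit3 were less stable to scaling between arrays. For Chac1 and Ddit3, r was 0.512 (permutation p = 0.0168) with each array shifted to the same median. It was 0.492 (permutation p = 0.0288) after quantile normalization. Of Atf4 and Chac1, r was 0.384 (permutation p = 0.106) after quantile normalization. When each array was shifted to the same median, r of Atf4 and Sesn2 turned to 0.520 and r of Sesn2 and Trib3 was 0.181. In that setting r was 0.790 for Atf4 and Chac1, 0.582 for Atf4 and Ddit3 and -0.492 for Atf4 and Trib3. That step subtracts the same array medians from every gene. After quantile normalization r of Atf4 and Ddit3 was -0.0569, r of Atf4 and Trib3 was -0.317 and r of Atf4 and Sesn2 was -0.302. That of Sesn2 and Trib3 was then 0.518. The range of Sesn2 over the 20 mice was 8.89e-05 on the deposited scale, less than the distance between the lowest and the highest array median. The same held for Phgdh (2.99e-05), Nupr1 (0.0001) and Psat1 (0.000171).

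No relation of an amino acid enzyme passed by both r and rho. Asns had r = 0.243 with Atf4 (permutation p = 0.305, rho = 0.129), 0.119 with Chac1 and -0.130 with Phgdh. Its farthest relation was with Trib3 (r = -0.444, permutation p = 0.0479), which rho did not share (rho = -0.305, permutation p = 0.190). Psat1 and Phgdh, neighbours in serine synthesis, gave r = -0.389 (permutation p = 0.0958). Psat1 had r = 0.493 with Nupr1 (permutation p = 0.0383), but rho was 0.113 and r without the 2 mice farthest out was -0.182. Psat1 and Chac1 gave r = 0.442 (permutation p = 0.0420), with rho = 0.317 and r = 0.0814 without its 2 mice farthest out. The mice left out were HFD replicates 3 and 8 for Nupr1, and HFD replicate 3 and MSXH replicate 3 for Chac1. Psat1 and Atf3 gave rho = 0.552 (permutation p = 0.0132) with r = 0.369 (permutation p = 0.105). Of the members with the composite element in their window, r with Atf4 was 0.649 for Chac1, 0.421 for Nupr1, 0.243 for Asns, 0.160 for Atf3 and -0.653 for Trib3. Without it, r was 0.546 for Ddit3, 0.279 for Psat1, 0.263 for Phgdh and -0.492 for Sesn2, so both sets held both signs.

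Since the members were chosen as a group, the p-values were not adjusted over the 45 pairs alone. To set these relations against all other genes, the level of each of the 8 tested members was used in turn as a predictor in limma beside diet, over the other 11727 genes. No pair of members was called in both directions, and 0 members were called in any of the 8 fits at an adjusted p of 0.05. The smallest adjusted p of a member was 0.0685, for Atf4 in the Chac1 fit, followed by 0.101 for Trib3 in the Atf4 fit and 0.119 for Chac1 in the Atf4 fit. Beside these counts of 0 members, the share of all genes called was 0.0767% in the Atf4 fit (9 genes), 0.81% in the Chac1 fit (95 genes), 0.469% in the Phgdh fit (55 genes) and 0% in those of Ddit3, Trib3, Asns, Sesn2 and Nupr1. At an unadjusted p under 0.05 there were 4 of 7 other members in the Atf4 fit, where 12.2% of all genes had such a p. There were 2 of 7 in the fits of Ddit3 (12.9% of all genes), Trib3 (9.67%), Chac1 (13.7%) and Sesn2 (5.13%). There were 0 of 7 in the fits of Asns (5.62%), Phgdh (18.2%) and Nupr1 (3.73%). The slope on a member was also compared between MSXH and HFD mice: 0 of 93816 relations differed in slope (0%), and the smallest adjusted p of a member was 0.626.

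For 8 members, a further probe set of the same gene shows how far a level depends on the probes. The measurements agreed closely for Asns (r = 0.961), Trib3 (0.939) and Ddit3 (0.747). For Psat1 r was 0.868 but rho 0.492. Atf4 had 2 further probe sets: the r was 0.679 for one and -0.0153 for the other, whose mean lay below the filter. Sesn2 (0.396), Nupr1 (0.309) and Phgdh (0.351, 0.0879 and -0.0295) agreed weakly. The names of the probe sets used for Trib3, Phgdh and Nupr1 carry the maker's suffix for probes that can also bind other transcripts, and that of Psat1 the suffix for probes shared by several transcripts. The sign of the Sesn2 and Trib3 relation was the same in 4 of 4 combinations of probe sets (r from 0.470 to 0.638), that of Atf4 and Trib3 in 5 of 6 (r from -0.653 to 0.154) and that of Atf4 and Chac1 in 2 of 3 (r from -0.284 to 0.649). With the probe set of largest SD for each gene, r of Atf4 and Ddit3 was -0.0265, r of Atf4 and Chac1 was 0.375 (permutation p = 0.0994) and r of Atf4 and Sesn2 was -0.287. For the diets, all 3 Atf4 probe sets had a negative g, at -0.454, -0.583 and -0.956 (95% interval -1.88 to -0.0307), and the last was 1 of the 21 probe sets and not the one used. The 2 Nupr1 probe sets differed in sign (-0.230 and 0.531), as did the 2 of Ddit3 (-0.0259 and 0.264). Of the 4 Phgdh probe sets, g was -0.0561 for the one used and -0.612, -0.253 and 0.120 for the others.

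**Figure D4:**
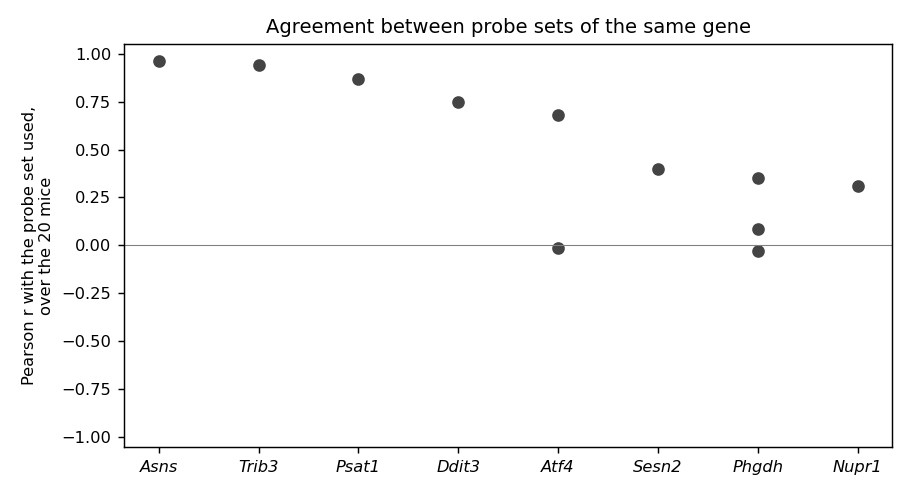
Pearson r over the 20 mice between the probe set used for a gene and each further probe set of that gene, 1 point per further probe set. Atf3 and Chac1 had 1 probe set and are not shown. Asns, Trib3, Psat1 and Ddit3 lie at 0.747 or higher, and 1 Atf4 point and 2 Phgdh points lie near 0.

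The genes most like each member over the 20 mice came from outside the pathway lists, by Pearson r as a description. Besides the members, those lists hold 98 of the 11728 genes searched, so the absence of such genes says little. Atf4 was most like Zfp568 (0.912), the chromatin reader gene Brd2 (0.801) and Zpr1 (0.779). Chac1 was most like Arid5b (0.886) and the forkhead factor genes Foxa1 (0.884) and Foxq1 (0.833). Ddit3 was followed by Zfp790 (0.793), Cog3 (0.783) and Dap (0.773), and Atf3 by the AP-1 gene Jund (0.718), Vrk1 (0.708) and Pa2g4 (0.705). For Trib3 they were Mapk1ip1 (0.827), Pxk (0.776) and Fam110c (0.772), and for Sesn2 Slc25a33 (0.788), Idua (0.782) and 4930523C07Rik (0.732). Nupr1 was most like the actin-binding profilin gene Pfn1 (0.703), Epc1 (0.666) and Slc22a17 (0.636).
Of the enzymes, Asns was most like Plxdc1 (0.723), Col9a3 (0.683) and Cnnm1 (0.674). Phgdh was most like A330102I10Rik (0.827), Zfp689 (0.794) and Ppp4r1l-ps (0.789). Psat1 was most like Ugt2b5 (0.882), Zfp217 (0.840) and Rida (0.810). No member was among the 3 genes most like another member, where Atf3 and Psat1, below the filter, could not be.

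The 98 genes of the wider pathway were also looked up in the fits on the members. Of them, 1 was called in the Chac1 fit (0.81% of all genes) and 1 in the Phgdh fit (0.469% of all genes), both negative, and 0 in the other 6 fits. These counts are near the share of all genes and say nothing particular of the pathway. Ddit4, an inhibitor of mTORC1, had r = -0.726 with Chac1 (limma adjusted p = 0.0456) and -0.567 with Atf4. Atf5, a paralog of Atf4, had r = -0.730 with Phgdh (limma adjusted p = 0.0453). With Asns the relations farthest from 0 in each list were those of Shmt1 (-0.693) and Mthfd1l (0.541) of one-carbon metabolism, Bbc3 (-0.595) and Herpud1 (-0.449) of the other targets, and Gcn1 (-0.498) and Eif2b1 (-0.449) of the eIF2alpha list. They were -0.430 for Mlxip and 0.278 for Jun, 0.391 for Slc1a4 and 0.387 for Slc1a5, -0.307 for Iars and -0.289 for Wars, and -0.359 for Sel1l and -0.296 for Syvn1. None of the 98 genes was called in the Asns fit.

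The 15 unfolded protein response genes of the ATF6 and XBP1 arms, chaperones and folding enzymes of the endoplasmic reticulum, had a median r of 0.507 with Ddit3 and 0.435 with Chac1, where the medians over all genes were 0.0616 and 0.00255. All 15 had a positive r with Chac1 and 14 with Ddit3, where 50.3% and 57.7% of all genes did, and 0 of them were called in either fit. All 15 were also positive with Nupr1 (50.9% of all genes), and 13 with Atf4 (49.9%) and with Sesn2 (49.0%). These genes varied together, with a mean level from -1.49 to 1.68 SD units in HFD mice, so their signs are not separate observations. Their median r was 0.0882 with Atf4 and -0.0550 with Trib3. Cebpb and Cebpd, partners of ATF4 on the composite element that were singled out after their values were seen, were negatively correlated with Chac1 (-0.707 and -0.716) and Atf4 (-0.582 and -0.519) and positively with Trib3 (0.642 and 0.462). Cebpg, the other C/EBP gene of that list, had r = 0.266 with Chac1, 0.0919 with Atf4 and -0.0355 with Trib3. None of these 3 genes was called in any fit.

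Levels of cell type markers were set beside those of the members, as a description. The 11 hepatocyte markers had a median r of -0.380 with Ddit3, -0.320 with Chac1 and -0.279 with Atf4, and the 12 Kupffer cell markers one of 0.365 with Chac1 and 0.399 with Sesn2. All 12 Kupffer cell markers had a positive r with Atf4, Chac1, Sesn2 and Nupr1, where 49.9%, 50.3%, 49.0% and 50.9% of all genes did. With Ddit3 it was 11 of them (57.7% of all genes). The markers varied together, with a mean level from -1.92 to 1.86 SD units in MSXH mice, so their signs are not separate observations. The mean hepatocyte level ran from -0.668 to 0.443 SD units in MSXH mice and from -1.27 to 0.874 in HFD mice. The hepatocyte markers Alb, Ttr, Apoa1 and Cyp2e1, with mean levels of 14.4 to 14.7, barely varied on the deposited scale. By diet, Alb had g = 0.403 but a limma unadjusted p of 0.973, and Apoa1 -0.379 but 0.972. In SD units such markers weigh as much as the others, so the hepatocyte values are not a measure of hepatocyte content. Over the 9 stellate cell markers tested, of 10, the median r was 0.390 with Ddit3 and 0.355 with Atf4, and their mean level ran from -1.35 to 1.49 in MSXH mice and from -0.849 to 0.742 in HFD mice. Of the 10 sinusoidal endothelial markers, 9 had a higher mean in MSXH livers (median g 0.476, 0 called), and their mean level ran from -0.900 to 0.681 in MSXH mice and from -0.505 to 0.549 in HFD mice. Their median r was -0.0440 with Atf4 and 0.220 with Trib3, and among them Clec4g, singled out after its values were seen, had -0.741 with Atf4 and 0.676 with Trib3. The part of cell make-up in the relations between members was not tested. Principal components were taken from the other tested genes, standardised and centred within each diet. The first 2 held 16.9% and 15.8% of that within-diet variance. With the first, r was 0.580 for Chac1 and 0.560 for both Psat1 and Ddit3, and with the second it was -0.698 for Phgdh.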

How the data were processed

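RNA from 20 livers was hybridised to 20 arrays. Per the labels' protocols, the authors labelled copies of 200 ng total RNA with biotin using a 3' IVT kit, which reads the 3' end of transcripts. How the scanner values were corrected, normalized and summarised is not given in the sources used here. The 45101 deposited values per array were taken as log2, since they reach 14.96, above the natural log of the largest 16-bit scanner value (11.09). Signal over background is not known. Precision is limited by the number of arrays.

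Genes came from the platform annotation: 34945 probe sets name 1 gene, 932 several and 9160 none, and 64 are controls. Gene numbers of 34741 were found in the reference gene table. The filter was a mean above the median of the probe sets. Diets and co-variation were tested with limma 3.58.1 in R 4.3.3 (lmFit, eBayes, Benjamini-Hochberg), on all genes that passed, and tested on simulated data. Permutation tests used numpy 2.4.6 in Python 3.11.15, with ranks from scipy 1.17.1. For the alternative settings and with mice left out they were run in R, with fewer resamples. Intervals of r used Fisher's transformation, and figures matplotlib 3.10.9. Named genes were the members, the 3 genes most like each, and of each list the 2 with the smallest p by diet and the 2 with the highest absolute r with Asns; other genes were chosen after their values were seen. The members and lists were chosen with earlier results of these data known. The labels give no pairing by replicate number. Between MSXH and HFD mice of the same number, 3 of 10 correlations were over 0.1 (mean 0.0532, from -0.136 to 0.373). The mean between mice of other numbers was -0.00604. These values do not decide whether the mice were paired.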

Additional observations from a re-analysis of the deposited data

Results flagged for a closer look

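Each member was examined in each diet, in 20 sets of 10 mice, for a mouse whose gap to its nearest neighbour exceeded Dixon's critical share of the whole range (0.466). In 2 sets a mouse did so, where chance gives about 1. Asns was high in MSXH replicate 5, with a gap of 0.469 of the range, only just past the critical share. Psat1 was high in HFD replicate 3, with a gap of 0.772. That mouse also held the highest Nupr1, Atf4 and Chac1 of all 20 mice. The cause of either was not tested.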

How the results depend on the processing

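No gene and no member was called between the diets under any alternative: scaling, filter, probe set, variance model, ranks, array weights, Wilcoxon test, the replicate block, the 2 mice left out together (chosen after seeing the data), or any single mouse left out. The same held for members in the Asns fit (which could not be had with the stricter filter or with the probe set of largest SD, since Asns then lies below the filter) and for differences of slope. The count of member pairs called in both fits was 0, and 0 to 1 when a mouse was left out (Atf4 and Chac1, without MSXH replicate 2). It was 10 when all arrays were given a common median, a step that subtracts the same array medians from every gene. In that setting 52527 of the 93816 relations over the 8 member fits were called. The 10 pairs therefore say nothing particular of the members. With the replicate block the count of member pairs called was 0. By diet, 1 of the 8 members then had an unadjusted p under 0.05, where 501 of all 11728 genes did. Without the block it was 0 members and 425 genes. The pairs at an unadjusted p under 0.05 in both fits numbered 1 with the block, against 6 without it. Signs turned for r of Atf4 and Ddit3 (-0.0569 after quantile normalization, -0.0265 with the probe set of largest SD) and of Atf4 and Sesn2 (0.520 with shifted arrays). The cause was not tested. Genes called over all member fits numbered 159, against 52527 with shifted arrays, 1957 after quantile normalization, 254 with the first principal component as a covariate, 72 with the actin control, 25 with array weights, 9 with 2 components, 1 with the block, 0 on ranks, 68 with the stricter filter, 53 without the 2 mice, and 53 to 244 without a single mouse. Genes at an unadjusted p by diet numbered 425, against 46 with shifted arrays, 128 after quantile normalization, 197 with the stricter filter and 780 with none. Precision is limited by 10 mice a group.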
